A study of Mus musculus with 4 samples.

Results

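The 10 genes described here are the Notch receptors Notch1 to Notch4, the ligands Dll1, Dll4, Jag1 and Jag2, and the target genes Hes1 and Hey1. They were chosen by gene name. The array carried 14 probes for them among 41174 different probes, and 9 of the 10 genes passed the signal filter and stand among 17537 features tested. Dll4 did not pass. The study measured total RNA from cultured mouse germline stem cells, the cultured form of spermatogonial stem cells, on 4 Agilent arrays with 1 colour (Cy3). The labels describe both groups as Roa-CreERT2;CAG-CAT-3FlagNanos2-pA cells, which carry a Cre recombinase that 4-hydroxytamoxifen activates, knocked in at the locus that the growth protocol spells Rose, and a construct for Flag-tagged Nanos2 under the CAG promoter. One group of 2 arrays took DMSO and the other group of 2 arrays took 4-hydroxytamoxifen, each for 48 hours. The cells grew with GDNF (20 ng/ml), EGF (20 ng/ml) and FGF2 (10 ng/ml) on mitomycin-C-treated embryonic fibroblasts, which were removed before RNA extraction. No group took the compound without the construct, so effects of Nanos2, of the recombinase and of the compound cannot be told apart.

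Notch signalling passes between touching cells. A ligand of the Delta (Dll) or Jagged (Jag) family on one cell pulls on a receptor on its neighbour, ADAM proteases and then gamma-secretase cut the receptor, and the freed intracellular part enters the nucleus. There it joins the DNA-binding protein RBPJ and a Mastermind coactivator and switches on genes of the HES and HEY repressors. In the testis the pathway is best known from the exchange between germ cells, whose Jagged ligands reach Sertoli cells, and the Sertoli cells that support them.

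The sequences of 3 probes are shown because they lie in coding sequence, and 1 of them carries the Hes1 result while the others show where probes of a gene part ways. The Hes1 probe is designed on part of the basic helix-loop-helix domain, the Jag1 probe on the cytoplasmic tail and the Notch2 probe on the C-terminal end. They are printed in lower case throughout, as no shorter part is singled out.
Hes1 probe A_51_P498093: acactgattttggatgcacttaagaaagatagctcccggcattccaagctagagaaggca
Jag1 probe A_51_P280906: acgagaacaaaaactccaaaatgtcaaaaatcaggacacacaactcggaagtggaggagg
Notch2 probe A_51_P216397: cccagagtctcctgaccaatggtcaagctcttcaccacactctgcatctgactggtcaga
The Hes1 probe spans 296 bases of the genome for its 60 bases (chr16:30065983-30066278, mm9, plus strand), so it crosses a splice junction. The Jag1 probe lies at chr2:136908942-136909001 (minus strand) and the Notch2 probe at chr3:97951205-97951264 (plus strand), both on mm9. All 14 probes are drawn from transcript accessions, and whether the other 11 lie in coding sequence or in an untranslated region was not determined here.

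Cells given 4-hydroxytamoxifen had more Dll1 and Notch3 transcript and less Notch1, Jag1 and Hes1 transcript than cells given DMSO. Dll1 rose 6.35-fold and Notch3 1.96-fold, while Hes1 fell to 0.305 of its DMSO signal, Jag1 to 0.469 and Notch1 to 0.539. Hey1 and Jag2 did not pass the test, and the small calls of Notch2 and Notch4 did not last under other processing. Of the 9 genes tested, 3 were higher and 4 lower at a limma adjusted p under 0.05, against 69.5% of all features called in either direction (40.3% higher and 29.3% lower). Of all calls 57.9% were higher, a share that was 46.2% with median scaling and 50.2% with spike-in scaling. For 8 of the 9 both arrays of one group lay above both of the other, against 86.5% of all features. Those shares lie near the background, so the count by itself is not a result about Notch genes, and what follows is about which of them moved and by how much. A call of at least 2-fold was made for 1 gene upwards (Dll1), against 16.2% of all features, and for 2 downwards (Jag1 and Hes1), against 8.19%. The median difference of the 9 genes was 0.03 on the log2 scale and that of all features 0.11.

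Values below are processed signals, the scanner's brightness per spot after background subtraction, in arbitrary units that cannot be compared between probes. A summed signal of a marker list is therefore weighted to its brightest probes and does not measure the share of a cell type. Differences are on the log2 scale, 4-hydroxytamoxifen minus DMSO, each array having first been scaled to its own 75th percentile, with the standard error (SE) that limma gives and n = 2 arrays in each group. A two-sided exact permutation test has a smallest possible p of 1 in 3 at this size, so each adjusted p leans on the spread that limma pools over all features. Whether the arrays of a group stand for different cultures is not in the labels, and the p-values then reflect the spread among the 4 arrays alone, which may be technical. The 75th percentile of the signal lay between 706.1 and 745.9, between 62.1% and 65.9% of spots were well above background, and no spot was saturated (0 on each array). Nanos2 read 353 and 352 in DMSO and 904 and 1070.1 in 4-hydroxytamoxifen, a rise of 1.55 ± 0.10 (adjusted p = 0.000861) in the direction of the group labels. Germ cell markers were detected, with Ddx4 between 18716 and 23793 and Dazl between 7776 and 22427, and all 12 germ cell markers tested were well above background on both DMSO arrays. The same held for all 18 embryonic fibroblast markers, with Col1a2 at 40912 and 46477 in DMSO. These signals alone therefore do not set the share of each cell type in the RNA.

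**Figure D1:**
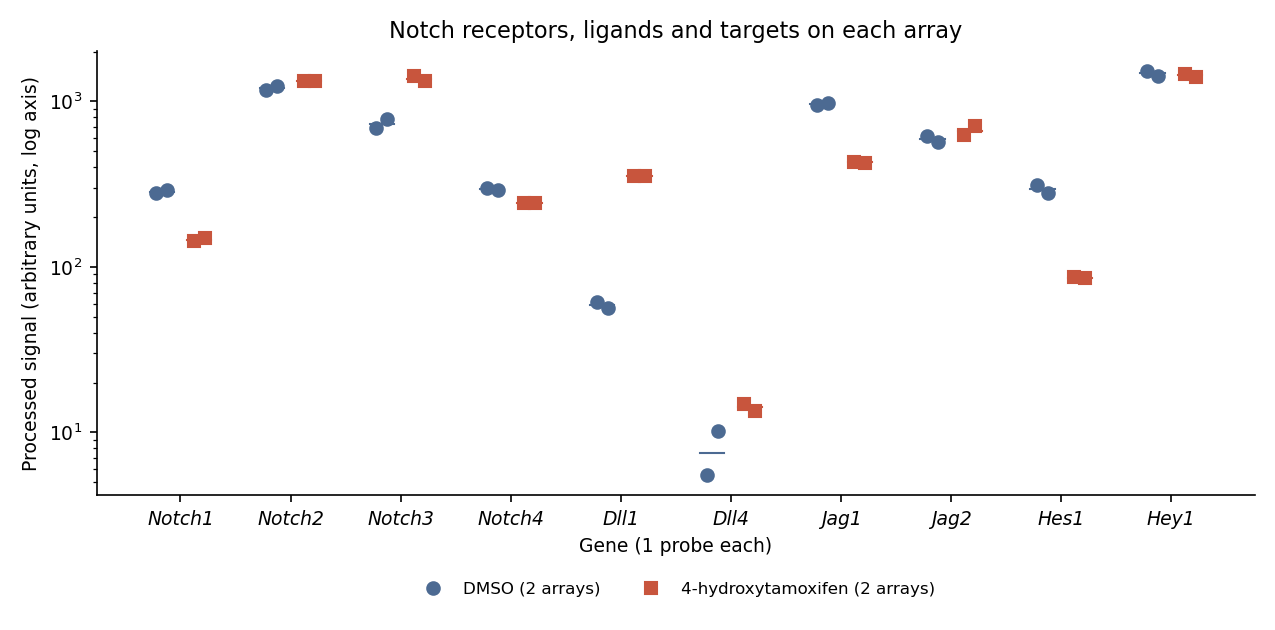
Processed signal (arbitrary units, log axis) of 1 probe for each of the 10 genes. Circles are the 2 DMSO arrays, squares the 2 4-hydroxytamoxifen arrays and short lines the geometric mean of each group. Dll1 and Notch3 are higher and Notch1, Jag1 and Hes1 lower on both 4-hydroxytamoxifen arrays, whereas the Hey1 arrays of the groups overlap and Dll4 lies below the level that counts as well above background.

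Among the receptors, Notch1 fell. Its probe at chr2:26314772-26314830 (mm9, minus strand), spotted 10 times on each array, had a signal of 278 and 291 with DMSO and of 144 and 149 with 4-hydroxytamoxifen. Every one of the 10 spots in each 4-hydroxytamoxifen array, 188 at the most, was dimmer than every DMSO spot, 262 at the least. The difference was -0.89 ± 0.06 (limma adjusted p = 0.000977), and -0.66 with normexp background correction. A second Notch1 probe, next to the first in the transcript at chr2:26314830-26314889, read 166 and 178 in DMSO and 78.2 and 77.7 in 4-hydroxytamoxifen, or -1.07 ± 0.07 (adjusted p = 0.000979 in the fit over all probes). Both probes thus placed Notch1 lower, with no overlap between groups.

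Notch3, the receptor best known from vascular smooth muscle and pericytes, rose. Its single probe (chr17:32257848-32257907, mm9, minus strand) read 692 and 780.4 in DMSO and 1419 and 1330.6 in 4-hydroxytamoxifen. The groups were well apart, and the difference was 0.97 ± 0.09 (limma adjusted p = 0.00147). All 10 pericyte and smooth muscle markers rose on these arrays (median 1.05), led among those measured in both groups by Rgs5 (1.75 ± 0.20) and Myh11 (1.24 ± 0.10). Their summed signal was 37379 and 38980 in DMSO and 65048 and 63125 in 4-hydroxytamoxifen, with Abcc9 and Kcnj8 not well above background in DMSO. Embryonic fibroblast markers rose in 17 of 18 cases (median 0.99), led by Thbs1 (1.48 ± 0.11) and Pdgfrb (1.40 ± 0.07), with a summed signal of 134080 and 155721 in DMSO against 249448 and 236638 in 4-hydroxytamoxifen. The part of these cells in the Notch3 value was not tested. In bulk RNA, a change in the number of cells of a type and a change in RNA per cell cannot be told apart.

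Notch2 and Notch4 gave small differences. The brightest Notch2 probe (chr3:97953914-97953973, mm9) read 1175 and 1243 in DMSO and 1330.3 and 1325 in 4-hydroxytamoxifen, a difference of 0.21 ± 0.06 (limma adjusted p = 0.0446). The probe at chr3:97952843-97952902 went the other way, from 179 and 179 to 103 and 119 (-0.62 ± 0.10, adjusted p = 0.00622 over all probes). The coding probe printed above read 27.4 and 25.9 against 21.6 and 23.6 and did not pass (-0.17 ± 0.08, adjusted p = 0.143). The 3 probes therefore give no single direction for Notch2, and its call was lost or reversed in 10 of 14 processing alternatives (adjusted p from 0.036 to 0.837), those that left out any single array among them, with the mean of its probes at -0.19 (adjusted p = 0.0738). Notch4, best known from blood vessel endothelium, read 299 and 292 in DMSO and 243 and 244 in 4-hydroxytamoxifen (chr17:34725120-34725179, mm9), a difference of -0.21 ± 0.06 (adjusted p = 0.0396). The groups did not overlap, yet the call was lost in 8 of 14 alternatives, again with any single array left out (adjusted p from 0.00743 to 0.172). Endothelial markers went both ways here: 7 of 12 tested rose (Emcn by 1.65 ± 0.10, and Robo4, which was well above background on only 1 of the 2 DMSO arrays) and 1 fell (Sox18, at least 2.33-fold), the median being 0.55. Their summed signal ran from 7090.1 to 7519 in DMSO and from 8024 to 8353 in 4-hydroxytamoxifen. Of it, Egfl7, which did not pass (-0.17 ± 0.06), held 4363 and 4448 in DMSO and 3739 and 3719 in 4-hydroxytamoxifen. The defining markers Cdh5 and Tie1 were well above background on none of the arrays (0). Any part of endothelial cells in the Notch4 value was not tested.

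Among the ligands, Dll1 rose more than any other of the 9 genes. Its probe (chr17:15504623-15504682, mm9, minus strand), also spotted 10 times, read 61.0 and 56.2 in DMSO and 355 and 353 in 4-hydroxytamoxifen. Spots flagged as outliers were left out, so that 9 spots counted on DMSO replicate 1 and 10 on each other array. Among these, no DMSO spot exceeded 67.8 and no 4-hydroxytamoxifen spot was under 327. With outlier spots kept, the Dll1 difference was 2.63. In the main fit the difference was 2.67 ± 0.08 (limma adjusted p = 0.000367), and both groups were well above background. With normexp background correction, which compresses dim signals, the difference was 1.83. Of 15135 other named genes, Cubn (2.72) and 2610028E06Rik (2.68) were among the 3 whose signal over the 4 arrays lay closest to that of Dll1, at Euclidean distances of 0.059 and 0.076 between centred log2 profiles.

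Jag1 fell. Its probe at chr2:136907433-136907492 (mm9, minus strand) read 945 and 975 in DMSO and 430.4 and 426 in 4-hydroxytamoxifen, a difference of -1.09 ± 0.06 (limma adjusted p = 0.000671). The groups were apart by more than 2-fold. The coding probe of Jag1 printed above was not well above background on any array and read 10.4 and 10.3 in DMSO and 5.27 and 12.2 in 4-hydroxytamoxifen, so the fall of Jag1 rests on 1 probe. Jag2 (chr12:114146887-114146946, mm9, minus strand) read 618 and 571 against 625 and 708, a difference of 0.23 ± 0.10 that did not pass (adjusted p = 0.0937, alternatives from 0.0505 to 0.759). Dll4, the Delta ligand of endothelial tip cells, read 5.51 and 10.2 in DMSO and 14.9 and 13.5 in 4-hydroxytamoxifen (chr2:119160779-119160838, mm9). It was not well above background on any array and was not tested.

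Of the 2 target genes, Hes1 fell and Hey1 showed no difference past the spread between arrays. Hes1, a repressor that many cell types switch on within the first response to Notch, read 314 and 278 in DMSO and 86.5 and 85.2 in 4-hydroxytamoxifen. The difference was -1.71 ± 0.09 (limma adjusted p = 0.000612), the largest fall among the 9 genes. With normexp background correction the Hes1 difference was -1.22. The profiles closest to that of Hes1 were those of Slc43a3 (-1.73), 2700099C18Rik (-1.69) and Nln (-1.68), at distances of 0.053, 0.056 and 0.064. Hey1 (chr3:8663432-8663491, mm9, minus strand) read 1528 and 1430.0 in DMSO and 1458 and 1414 in 4-hydroxytamoxifen, with overlapping arrays and a difference of 0.03 ± 0.07 (adjusted p = 0.744, alternatives from 0.148 to 0.967). Germ cell markers were lower in 8 of 12 cases on these arrays and higher in 1 (Tspan8, 0.29), the median being -0.78, with Gfra1 at -2.45 ± 0.06 and Ret at least 1.26-fold lower. Their summed signal was 152631 and 151111 in DMSO and 93366 and 100319 in 4-hydroxytamoxifen. Of it, Uchl1 alone held 78797 and 79185 in DMSO and 45028 and 47694 in 4-hydroxytamoxifen. The germ cell markers Ddx4 (-0.17 ± 0.08), Sall4 (-0.16 ± 0.07) and Mael (0.12 ± 0.09) did not pass. Whether there were fewer germ cells was not tested, nor was any part of that in the lower Notch1, Jag1 and Hes1 signals.

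**Figure D2:**
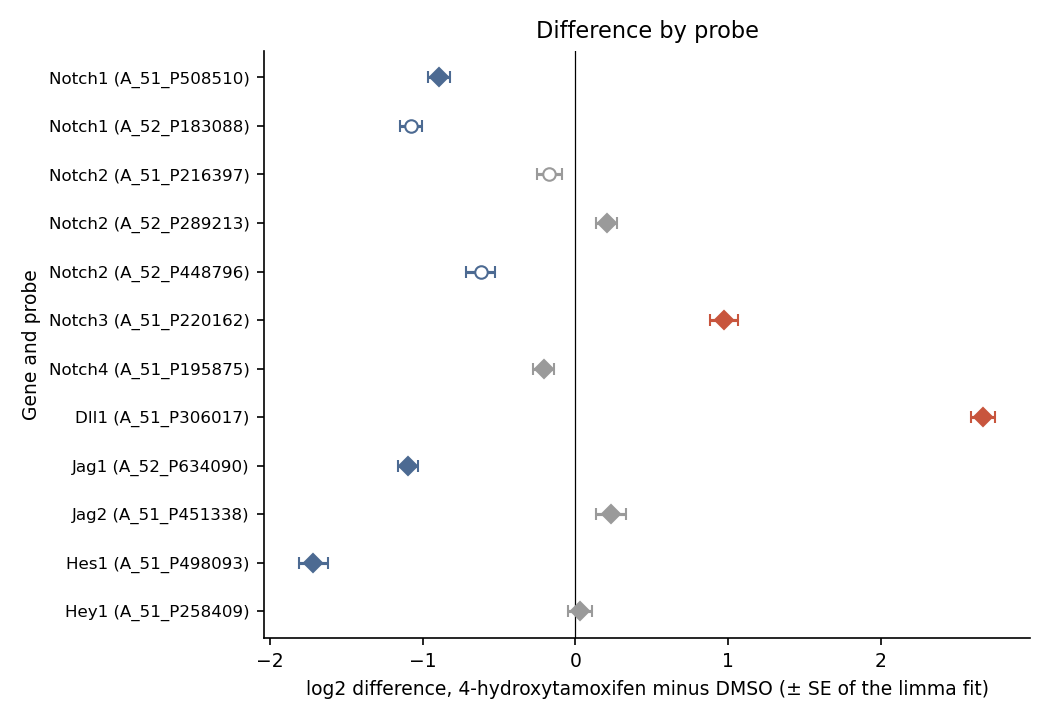
Log2 difference, 4-hydroxytamoxifen minus DMSO, with the SE of the limma fit over all probes, for the 12 tested probes of the Notch genes. Filled diamonds stand for their gene and open circles are further probes; red is higher, blue lower and grey did not pass in this fit. Both Notch1 probes lie to the left of 0, and the 3 Notch2 probes lie on both sides of it.

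Besides these 10 genes, 77 genes of the pathway were listed by role, and 70 of them were tested. Of these, 35 were higher and 19 lower, with a median of 0.23 beside 0.11 for all features. With median scaling 28 were higher and 27 lower, and with spike-in scaling 21 and 18. The shares of higher and lower calls in the whole array, 40.3% and 29.3%, again form the background. They are also the background for the counts of each role below and of the marker lists.

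**Figure D3:**
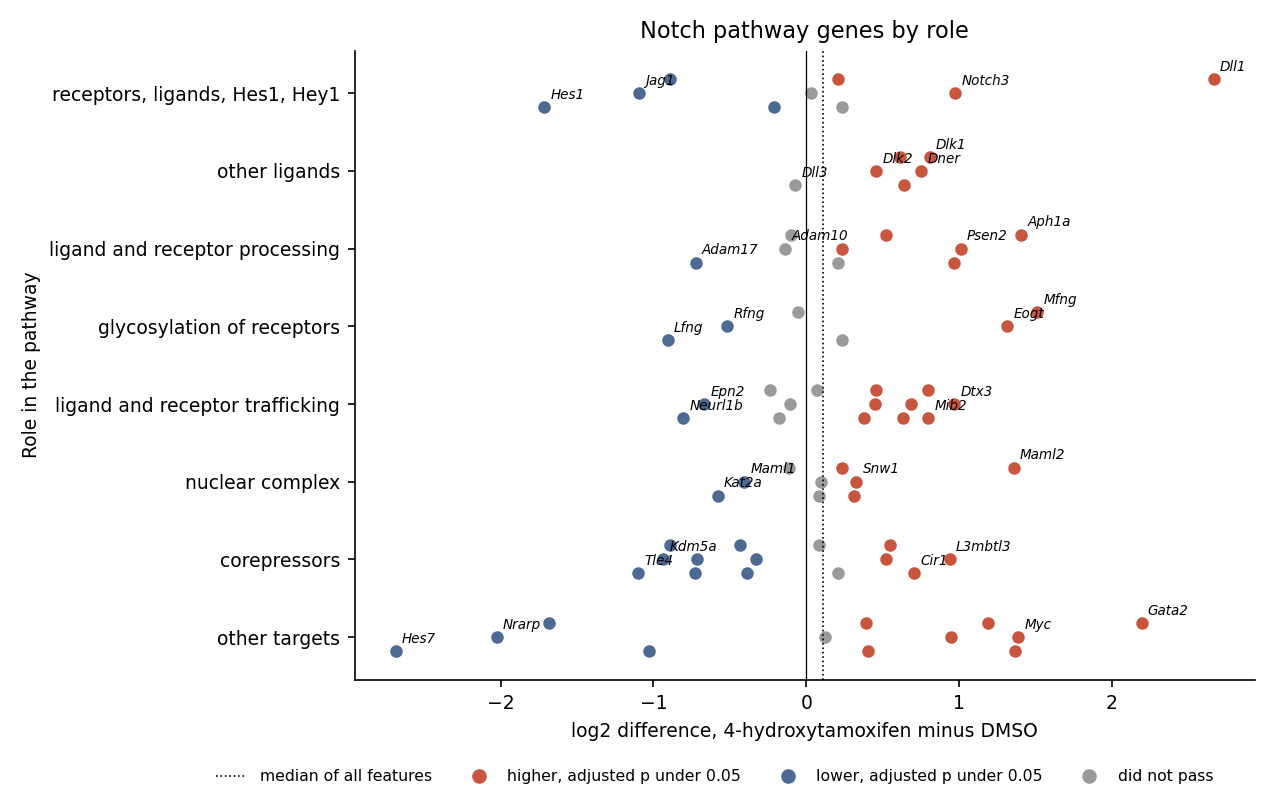
Log2 difference, 4-hydroxytamoxifen minus DMSO, of each tested Notch pathway gene (1 point each), grouped by role. Red points were higher and blue lower at a limma adjusted p under 0.05, grey did not pass, and the dotted line is the median of all features (0.11). Points of the corepressors lie mostly to the left and those of the other ligands to the right, while the targets spread from Hes7 on the left to Gata2 on the right.

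Among further target genes, Hes5, Hes7 and Heyl, which are built like Hes1, fell, and so did Nrarp, which is switched on by Notch and feeds back to destabilise its nuclear complex. Nrarp read 213 and 195 in DMSO and 44.2 and 51.3 in 4-hydroxytamoxifen, a difference of -2.03 ± 0.11 (limma adjusted p = 0.00062). Heyl, a HEY repressor, went from 103 and 110.4 to 30.7 and 32.7 (-1.68 ± 0.07, adjusted p = 0.000481). A further Heyl probe did not pass the signal filter and was not tested. Hes5, which with Hes1 mediates Notch in neural progenitors, went from 2489 and 2458 to 1062 and 1253 (-1.03 ± 0.10, adjusted p = 0.0018). Hes7, the oscillating repressor of somite formation, read 48.7 and 48.7 in DMSO and was not well above background in 4-hydroxytamoxifen (6.28 and 8.25), a fall of at least 2.71-fold (adjusted p = 0.000677). In each of these 4 genes both 4-hydroxytamoxifen arrays lay below both DMSO arrays. Groups without overlap, in either direction, were usual here (86.5% of all features).

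Counting the HES and HEY genes together, a grouping made after their values were seen, 7 of 9 were tested, of which 4 fell, 1 rose and 2 did not pass. Of all features, 29.3% were lower and 40.3% higher. Hes7, counted among the falls, passed the signal filter through its DMSO arrays alone. The gene that rose was Hes6, whose product inhibits HES1, from 1865 and 1883 to 2378 and 2296 (0.39 ± 0.06, limma adjusted p = 0.00653), a call lost with spike-in scaling (adjusted p = 0.35, alternatives from 0.00145). Hes2 (80.6 and 67.4 against 75.9 and 76.8, adjusted p = 0.384) and Hey1 did not pass. Further probes gave other calls: that of Hes6 did not pass (0.13 ± 0.09) and that of Hes2 was higher (0.25 ± 0.08, adjusted p = 0.0429 over all probes). Normexp correction made the falls of the dim genes smaller, with Nrarp at -1.22, Heyl at -0.77 and Hes7 at -0.63, all still past the threshold.

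**Figure D4:**
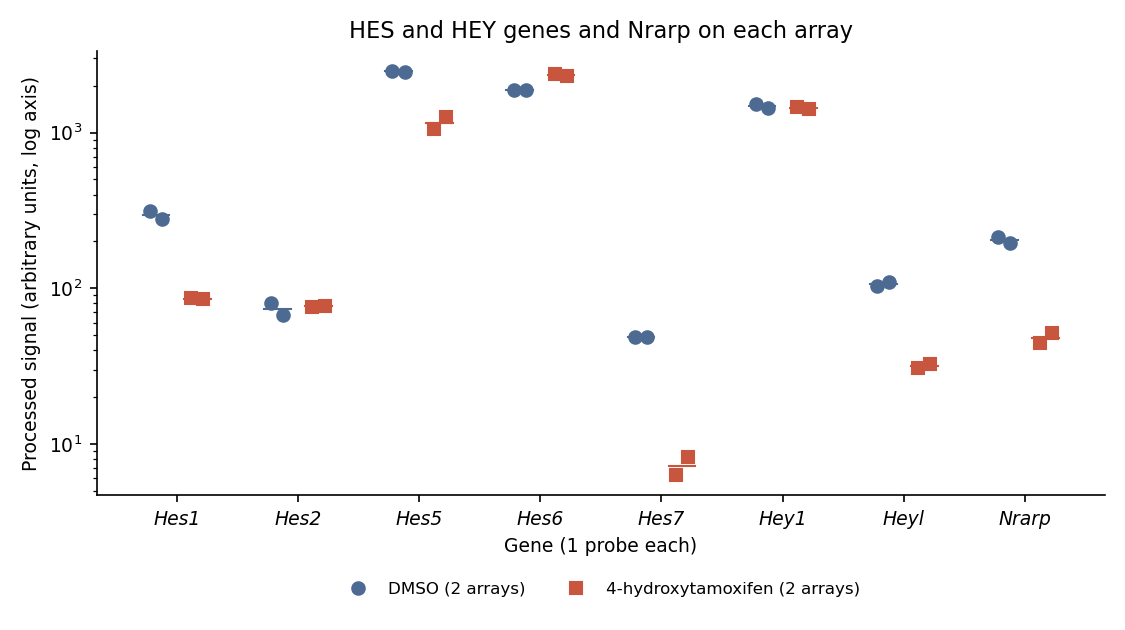
Processed signal (arbitrary units, log axis) of the 7 tested HES and HEY genes and of Nrarp. Circles are the 2 DMSO arrays, squares the 2 4-hydroxytamoxifen arrays and short lines the geometric mean of each group. Hes1, Hes5, Hes7, Heyl and Nrarp are lower on both 4-hydroxytamoxifen arrays, Hes6 is slightly higher, and Hes2 and Hey1 overlap.

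Several targets of other kinds rose. Gata2, a transcription factor of blood progenitors that Notch induces there, went from 190.5 and 214 to 882 and 878, a rise of 2.19 ± 0.08 (limma adjusted p = 0.000431) that a second probe shared (2.29 ± 0.07). Myc rose by 1.39 ± 0.14 and its 2 further probes by 1.33 and 0.76. Cyp26b1, which breaks down retinoic acid and responds to Notch in Sertoli cells, rose by 1.36 ± 0.21, from 307 and 439.6 to 997 and 811. The cyclin gene Ccnd1 (1.19 ± 0.14, adjusted p = 0.00277) and Gata3 (0.94 ± 0.12, adjusted p = 0.00327) were higher too. In all, 7 of the 12 further targets tested were higher and 4 lower, so the list had no common direction (median 0.40). Sertoli markers were higher in 7 of 9 cases, with Cldn11 at 3.58 ± 0.11 and Dhh at 1.33 ± 0.09, and lower in 1 (Wt1, -0.88 ± 0.10), with a summed signal of 4443 and 4984 in DMSO and 9545 and 9160.4 in 4-hydroxytamoxifen. The defining markers Amh and Fshr were well above background on none of the arrays (0). Of 9 markers of macrophages and blood, 6 rose and 0 fell (median 0.94), with Hba-a1 at 1.44 ± 0.06 and Adgre1 at 1.40 ± 0.14. The other globin gene Hbb-bt (-0.24 ± 0.14), Ptprc (0.01 ± 0.07) and Cd68 (0.11 ± 0.07) did not pass. The summed signal was 12053 and 13530.4 in DMSO and 25177 and 25850.0 in 4-hydroxytamoxifen. Of it, Lyz2 alone held 10921 and 12516.5 in DMSO and 23096 and 23791 in 4-hydroxytamoxifen. Itgam was not well above background on any array. The part of these cells in the Cyp26b1 and Gata2 values was not tested.

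Promoters of Hes5 and Hes7 are shown because both genes fell with Hes1 and hold the RBPJ core motif, searched as TGGGAA on both strands. Capitals mark its matches. The longer form GTGGGAA includes the core and was found at each of them. Sequences are from RefSeq on GRCm38.p6, which differs from the build of the probe positions, and run 5′ to 3′ from 250 bases before to 50 after the gene's start.
Hes5 promoter (chr4:154960673-154960972, plus strand): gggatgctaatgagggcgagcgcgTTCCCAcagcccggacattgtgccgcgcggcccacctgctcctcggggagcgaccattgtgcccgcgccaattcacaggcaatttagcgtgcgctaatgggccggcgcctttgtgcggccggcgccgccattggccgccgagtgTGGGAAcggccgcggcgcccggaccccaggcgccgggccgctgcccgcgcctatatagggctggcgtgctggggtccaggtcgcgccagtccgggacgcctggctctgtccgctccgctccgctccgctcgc
Hes7 promoter (chr11:69120203-69120502, plus strand): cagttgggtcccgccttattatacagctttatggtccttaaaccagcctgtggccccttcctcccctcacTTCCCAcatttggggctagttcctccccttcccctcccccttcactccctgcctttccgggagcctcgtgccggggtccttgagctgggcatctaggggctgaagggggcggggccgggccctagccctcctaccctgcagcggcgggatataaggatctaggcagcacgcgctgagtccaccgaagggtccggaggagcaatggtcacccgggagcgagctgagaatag
Hes5 held 2 matches and Hes7 held 1. Of all 32851 promoters of this length in the table, 25.6% held the core and 6.38% the longer form. In the further target list, 10 of 15 genes had a promoter in the table, and 4 of their 12 promoters held the core (Hes5, Hes7, Hey2 and Ptcra). Of these, Ptcra was higher (0.40 ± 0.11, limma adjusted p = 0.0277) and Hey2 was not tested. Nrarp, which fell as well, held no match, nor did Gata2. Of the 10 Notch genes, the receptors and ligands had 9 promoters in the table, and 0 of these held the core. Hes1 and Hey1 were not searched. A match is a description of the letters and shows no binding.

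Of 6 further ligands tested, 5 were higher and 0 lower, against 40.3% and 29.3% of all features. The median was 0.62 beside 0.11 for all features. Dlk1, a Delta-like protein without the domain that activates Notch, went from 1248 and 1207 to 1979 and 2109 (0.81 ± 0.07, limma adjusted p = 0.00138), and Mfap2, a microfibril protein that binds Jag1, rose by 0.64 ± 0.08, though its second probe did not pass (0.24 ± 0.16). Dner, a ligand of neurons, measured well above background with 4-hydroxytamoxifen only, rose at least 1.57-fold (limma adjusted p = 0.00724), a call lost with the mean of its probes (adjusted p = 0.097, alternatives from 0.00571) and a difference that was 0.22 with normexp. Dll3, a Delta ligand that acts inside the cell against Notch, was at -0.07 and did not pass. The pericyte and fibroblast markers given above were higher in the same arrays, and their part was not tested.

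Of the genes that process ligands and receptors, 5 of 9 were higher and 1 lower (median 0.24). Of the gamma-secretase subunits, Aph1a rose by 1.40 ± 0.09 (from 71.8 and 69.9 to 189 and 169; 0.89 with normexp), the catalytic subunit Psen2 by 1.01 ± 0.06 and Aph1b by 0.97 ± 0.13. Ncstn (0.21 ± 0.08) and Psenen (-0.10 ± 0.06) did not pass. A second Aph1a probe gave 1.02 ± 0.09. Adam17, a sheddase, fell by 0.72 ± 0.12 (limma adjusted p = 0.00782), although without 4-hydroxytamoxifen replicate 1 its adjusted p was 0.0506 (alternatives from 0.000194). Adam10, the protease that makes the first cut of a ligand-bound receptor, was at -0.14 ± 0.10 and did not pass (adjusted p = 0.276).

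Of the enzymes that put sugars on the receptor, 2 of 6 were higher and 2 lower (median 0.09), and the 3 Fringe genes, which tune the choice between Delta and Jagged ligands, parted. Mfng rose from 204 and 205 to 521 and 592 (1.51 ± 0.09, limma adjusted p = 0.000707). Lfng read 37.8 and 34.2 in DMSO and was not well above background in 4-hydroxytamoxifen (17.1 and 19.5), a fall of at least 1.87-fold (adjusted p = 0.00253; -0.28 with normexp). A further Lfng probe did not pass the signal filter and was not tested. Rfng, at -0.52 ± 0.15 (adjusted p = 0.0375), lost its call in 5 of 14 alternatives (adjusted p from 0.0052 to 0.158), among them those without DMSO replicate 2 and without either 4-hydroxytamoxifen replicate. Eogt, which adds N-acetylglucosamine to EGF repeats, rose by 1.31 ± 0.07.

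Of the genes for traffic and turnover of ligands and receptors, 8 of 14 were higher and 2 lower (median 0.41). The ubiquitin ligase genes Dtx3 (0.97 ± 0.10), Mib2 (0.80 ± 0.09) and Dtx4 (0.79 ± 0.08) rose most, and Neurl1b (-0.81 ± 0.13) and the endocytic adaptor Epn2 (-0.67 ± 0.07) fell. Numb, the inhibitor that marks receptors for removal, was at 0.07 ± 0.07 and did not pass (limma adjusted p = 0.42).

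Of the nuclear partners, 4 of 9 were higher and 2 lower (median 0.10). Rbpj itself, the DNA-binding partner, read 1738 and 1747 in DMSO and 1626 and 1448 in 4-hydroxytamoxifen and did not pass (-0.11 ± 0.08, limma adjusted p = 0.29), though it was lower with median scaling (-0.29, adjusted p = 0.0354). Of the Mastermind coactivators, Maml2 rose from 25.5 and 28.7 to 66.1 and 65.8 (1.36 ± 0.08; normexp 0.53) and Maml1 fell by 0.41 ± 0.07. A second Maml2 probe did not pass (0.03 ± 0.16). Kat2a, a histone acetyltransferase, fell by 0.58 ± 0.07. The call of Snw1 (0.33 ± 0.07) was lost in 6 of 14 alternatives (adjusted p from 0.00448 to 0.495), among them those without DMSO replicate 2 (0.0532) and without 4-hydroxytamoxifen replicate 1 (0.0659). The call of Crebbp (0.31 ± 0.06) was lost or reversed in 6 (from 0.00521 to 0.532), among them those without DMSO replicate 1 (0.057) and without 4-hydroxytamoxifen replicate 2 (0.0651), and 1 of its further probes was lower (-0.33 ± 0.07).

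Corepressors, which hold Notch targets off when no receptor fragment is present, were the role with the most falls. This ranking was made after the values were seen. Of 14 tested, 8 were lower and 4 higher, against 29.3% and 40.3% of all features. The median was -0.36 beside 0.11 for all features. Ncor1, counted as lower (-0.43 ± 0.07), had a further probe that was higher (1.38 ± 0.10), while its other tested probes were lower. Tle4, a Groucho corepressor that HES proteins recruit, fell from 10936 and 10618 to 4753 and 4813 (-1.10 ± 0.06, limma adjusted p = 0.000698). The histone demethylase Kdm5a fell by 0.94 ± 0.10, and its further tested probes were lower as well. L3mbtl3 (0.94 ± 0.16), Cir1 (0.71 ± 0.11) and Hdac2 (0.55 ± 0.08) rose most. Further probes of L3mbtl3 and Hdac2 did not pass the signal filter. The L3mbtl3 call was lost without 4-hydroxytamoxifen replicate 1 (adjusted p = 0.0512, alternatives from 0.000262), that of Cir1 with the mean of its probes (0.107, alternatives from 0.000267) and that of Hdac2 with spike-in scaling (0.103, alternatives from 0.000738).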

How the data were processed

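Total RNA of 4 samples, 0.20 µg each, was labelled with Cy3 and hybridised to Agilent design 014868. The deposited scanner files hold intensity values, made by the authors with Feature Extraction 10.7.3.1 per the file headers with background subtraction and detrending inside the array. Version 9.5 is the one in the submitters' processing notes. The authors' deposited value table, whose scale is not given in the sources used here, was found to be these signals in log2 with an array-wide constant added (0.275 to 0.362). All arrays shared 1 slide and 1 scan.

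Spots flagged as controls or as outliers (60 to 71 outliers on an array) were left out, spots of a probe were averaged as log2 values, each array's 75th percentile was subtracted, and probes well above background on at least 2 arrays were kept (26393). The brightest probe stood for its gene, which gave 17537 features, 15136 with a symbol (RefSeq, GRCm38.p6; 33636 of 41174 probes matched). The test was that of limma 3.58.1 (R 4.3.3) with group as the only term, Benjamini-Hochberg over all features, threshold 0.05; single probes come from the same fit over all kept probes. The fit was tested on simulated data. A fold given as "at least" divides the brighter mean by a floor, which on each array is the dim probe's own signal or, if higher, the lowest signal well above background there (15.0 to 19.5). Arrays of a group correlated at 0.995 and 0.996 across probes, which are not independent, and differed by 4.82 to 4.92 times the noise of repeated spots, which does not show whether their RNA came from separate cultures; each was kept as a sample. The alternatives were other background correction, scaling, filters and probe rules, the value table, a replicate block and each array left out.

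Named pathway genes were up to 3 passing genes per role and direction with the largest difference, and up to 2 per marker list; others (such as Hes5, Hes6, Ccnd1, Gata3, Rbpj, Myh11 and Adam10) were chosen after their values were seen. The genes and lists were chosen with earlier results of these data known. Probe positions are those of the scanner files and promoter sequences those of the RefSeq table. Some genes that the naming rule selects are not reported here.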

Additional observations from a re-analysis of the deposited data

How the results depend on the processing

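Of the 7 Notch genes called, 5 (Notch1, Notch3, Dll1, Jag1 and Hes1) kept their direction and call in all 14 alternatives, and Jag2 and Hey1 passed in none of them. Of 33 pathway genes named by rule, 25 kept their call in each alternative that gave them a value; Hes7, Lfng and Dner had none with the filter on all 4 arrays. The median of the 9 Notch genes, 0.03, has no stable sign: it was -0.15 with median scaling, -0.12 with spike-in scaling, -0.19 when probes of a gene were averaged and 0.12 with no filter, and -0.026 to 0.084 when 1 array was left out. The median of all features was 0.11, -0.07 with median scaling and -0.04 with spike-in scaling. Of the other pathway genes, 21 were higher and 18 lower with spike-in scaling in place of 35 and 19. The higher share of all calls was 57.9%, 46.2% with median scaling. With the mean of all probes, Notch2 was at -0.19 and Crebbp at -0.086. Whether the replicate numbers pair the arrays is not in the labels. Deviations of arrays with the same number correlated at -0.05 across features, which cannot settle how the cultures were handled. With a replicate block 2 Notch genes were higher and 3 lower, Notch2 (limma adjusted p = 0.124) and Notch4 losing their calls. In that fit 6504 features were higher and 4555 lower in place of 7063 and 5131. The number of arrays limits precision, and signal near background limits Dll4, Hes7, Lfng and Dner.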
